A study of Homo sapiens with 6 samples.

Results

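PAX6 encodes a paired-box and homeodomain transcription factor, and its surroundings on chromosome 11 were examined here for binding of GSX2. The members were all peaks with a summit within 300 kb of the PAX6 gene span, taken from 3 peak lists and merged across replicates where they overlapped by at least 1 bp. This gave 12 regions of 15743 in all. The window, chr11:31489026-32117961 in hg38, was 629 kb long. It held the whole of PAX6 and ELP4, while DCDC1 lay outside it, with its nearer end 419.3 kb from PAX6. Within the window, the choice of peaks used position alone and no measured value. PAX6 and the other named genes were chosen with earlier results of these data known.

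The lists came from chromatin immunoprecipitation and sequencing (ChIP-seq) of GSX2 in H9, a widely used line of human embryonic stem cells, differentiated toward progenitors like those of the lateral ganglionic eminence (LGE). All 6 libraries shared 1 genotype, a doxycycline-inducible TRE3G transgene that encodes GSX2 in its wild-type form behind 2 FLAG epitopes, and 1 treatment, 100 ng/mL doxycycline for 12 hours from day 10 with harvest at day 10.5. The 3 ChIP replicates, precipitated with the M2 antibody against FLAG, had a peak list each, and the 3 matching input libraries were not analysed here. No library without the transgene or without doxycycline was analysed, so there was 1 group and no contrast, and the protein measured was the induced, tagged one. The labels do not say whether the replicates were separate cultures, so their spread may be partly technical.

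In the embryonic forebrain PAX6 is a factor of dorsal, pallial progenitors and GSX2 a factor of ventral ones in the LGE. In the mouse, each is known to limit the territory of the other at the boundary between pallium and subpallium. PAX6 is also required for the eye, and loss of 1 copy causes aniridia in humans. The neighbouring gene ELP4 encodes a subunit of the Elongator complex, which modifies transfer RNAs, and its introns are known to hold distant enhancers of PAX6. DCDC1 encodes a doublecortin-domain protein. PAX6 lies on the minus strand and ELP4 on the plus strand, so their 3′ ends meet, with an overlap of 1.30 kb in RefSeq. Positions on the 3′ side of PAX6 therefore lie within ELP4 and then toward DCDC1, and positions on its 5′ side lie toward RCN1 and WT1.

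The sequences around annotated start sites nearest to the regions are shown, since the deposited lists hold none. RefSeq windows of build GRCh38.p14 run from 250 bases before a start to 50 after it. The genes that reach into the window around PAX6 had 20 such start windows, 9 of them for PAX6 itself, and 1 of the 20 overlapped a GSX2 region, against 3.12% of all start windows. That 1 belonged to ELP4-AS1, an antisense transcript within ELP4 (chr11:31767842-31768141, minus strand), and the overlapping region was called in 2 of 3 replicates. Another sequence is the PAX6 start closest to the strongest region (chr11:31800612-31800911, minus strand). This start lies inside the gene span and is not the first PAX6 start, which is at position 31817961. The next is the start of PAX6-AS1, an antisense RNA (chr11:31816316-31816615, plus strand). It is the start closest to the region that was second strongest by the mean of the replicates. The last, shown for its motif content, is the start of PAUPAR (chr11:31826317-31826616, plus strand). PAUPAR is a noncoding RNA known in the mouse to act with PAX6. Each sequence is written 5′ to 3′ on its gene's strand. Capitals mark TAAT and its reverse complement ATTA, the core that homeodomain proteins recognise.
ELP4-AS1: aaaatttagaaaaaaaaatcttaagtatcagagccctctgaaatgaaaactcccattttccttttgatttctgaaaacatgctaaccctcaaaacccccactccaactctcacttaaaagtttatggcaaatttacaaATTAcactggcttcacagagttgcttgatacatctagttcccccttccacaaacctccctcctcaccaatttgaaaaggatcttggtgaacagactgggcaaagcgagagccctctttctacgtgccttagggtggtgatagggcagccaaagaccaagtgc
PAX6: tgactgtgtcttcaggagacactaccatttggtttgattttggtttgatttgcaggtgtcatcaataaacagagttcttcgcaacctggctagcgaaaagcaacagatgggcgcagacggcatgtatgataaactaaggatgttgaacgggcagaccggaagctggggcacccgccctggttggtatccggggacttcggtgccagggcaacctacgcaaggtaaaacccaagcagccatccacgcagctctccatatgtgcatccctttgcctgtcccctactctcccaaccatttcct
PAX6-AS1: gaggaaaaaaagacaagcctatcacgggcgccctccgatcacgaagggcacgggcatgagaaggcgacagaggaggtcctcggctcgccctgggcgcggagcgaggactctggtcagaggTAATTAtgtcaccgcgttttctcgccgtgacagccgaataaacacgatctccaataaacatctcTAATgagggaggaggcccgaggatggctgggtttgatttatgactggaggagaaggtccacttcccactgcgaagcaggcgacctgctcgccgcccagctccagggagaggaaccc
PAUPAR: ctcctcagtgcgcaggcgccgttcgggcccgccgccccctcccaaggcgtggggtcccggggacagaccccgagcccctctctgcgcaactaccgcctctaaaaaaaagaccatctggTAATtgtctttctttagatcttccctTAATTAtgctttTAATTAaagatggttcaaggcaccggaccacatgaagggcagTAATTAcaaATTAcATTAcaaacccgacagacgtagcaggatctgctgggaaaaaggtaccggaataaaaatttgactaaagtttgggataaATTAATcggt

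In the ELP4-AS1 window, bases 1 to 129 lay inside the GSX2 region and the summit of replicate 2 fell on base 14. The single ATTA of that window began at base 139, outside the region. The printed PAX6 window had no TAAT or ATTA and ended 808 bp short of the strongest region. The PAX6-AS1 window held the 6-base word TAATTA at base 121 and a further TAAT at base 185. The edge of that window was 444 bp from the region second by the mean of the replicates. The PAUPAR window had 11 starts of TAAT or ATTA, counting both words within each of its 3 copies of TAATTA, and the nearest region was 10.95 kb away. Over 34943 RefSeq start windows, searched on both strands, 50.3% held TAAT, 4.85% held TAATTA and 0.286% had at least as many TAAT or ATTA words as PAUPAR. Of the 9 PAX6 windows, 4 held TAAT and 0 held TAATTA. A pair of TAATTA words 7 bases apart, was in 0 of the 20 windows and in 1 of all 34943. These matches describe the letters of start windows only. The sequences under the peaks themselves were not read, apart from the part of 1 region that ELP4-AS1 covers.

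Around PAX6, GSX2 regions were found in the gene body, in the adjacent part of ELP4 and upstream within PAX6-AS1. Within the window, the regions seen in more than 1 replicate all lay inside the gene or within 58.2 kb of it. Replicates 1, 2 and 3 had 7, 6 and 10 peaks in the window, from lists of 9859, 7471 and 9122 peaks on chromosomes 1 to 22 and X. Of the 12 merged regions, 4 were called in all 3 replicates (33.3%, with a 95% Wilson interval of 13.8 to 60.9%), against 22.5% of all regions, and regions of this kind are called shared. Another 3 were called in 2 replicates and 5 in 1. The 7 regions of at least 2 replicates (58.3%, against 45.1% of all regions) stood within 112.6 kb of each other, which is 17.9% of the window, with 0 regions of a single replicate between them. The 5 single-replicate regions lay farther out, 4 of them in ELP4 and 1 on the 5′ side. Beyond the window, regions of more than 1 replicate were found again, from 355.0 kb on the 3′ side and 382.2 kb on the 5′ side. The spacing of the 7 regions thus depends on the limit of 300 kb, and it is not compared with that of other windows. Sequencing depth is unknown, as peak lists give no counts of reads, and a missing call does not show that a site was unbound.

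**Figure D1:**
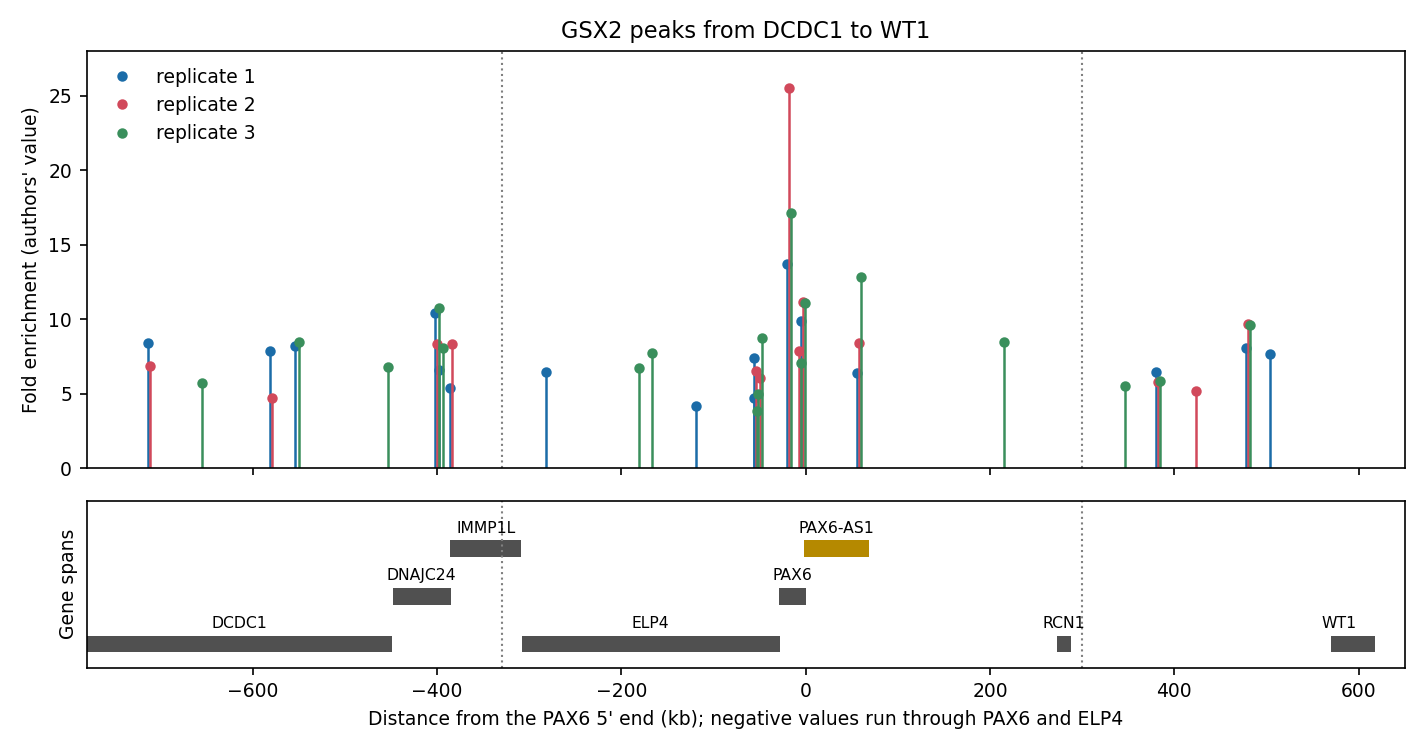
Fold enrichment of every peak from DCDC1 to WT1 (vertical axis, linear, the authors' value) against distance from the PAX6 5′ end in kb, with replicates drawn slightly apart in colours, protein-coding spans in dark grey, PAX6-AS1 in ochre and dotted lines at the edges of the window of 300 kb. The highest peaks of all 3 replicates (13.7, 25.5 and 17.1) stand inside PAX6, and the neighbouring peaks reach at most 12.8.

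The strongest region was inside PAX6, 18.4 kb from its 5′ end (chr11:31799309-31799803). Its fold enrichment, the authors' own value over the peak caller's background, was 13.7 in replicate 1, 25.5 in replicate 2 and 17.1 in replicate 3, which averaged 18.8 ± 6.1 (SD, n = 3). The lowest of these 3 values was above the highest value of any other region in the window, 12.8, so no other region reached it in any replicate. It was picked as the strongest, and no test was made. The −log10 q was 29.4, 62.5 and 32.8 in replicates 1, 2 and 3. Within each replicate's own list the peak ranked 704 of 9859, 59 of 7471 and 365 of 9122 by fold enrichment. By mean fold enrichment it was number 196 of the 3537 regions found in every replicate, above 94.5% of them.

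The replicates gave closely matching positions and unequal heights at this site. The 3 summits lay within 14 bp of each other, a range reached or undercut by 19.0% of shared regions, whose median was 30.0 bp. The 3 peaks had 374 bp in common, which is the whole of the replicate 2 peak. The coefficient of variation of fold enrichment was 32.3%, and 85.8% of shared regions had a lower one (median 19.5%). The value of replicate 2 was 1.86 times that of replicate 1, against a median ratio of 0.970 over all shared regions, and 97.2% of shared regions had a smaller ratio. The nearest annotated start was a PAX6 start 1.12 kb away, at position 31800661. That start lies inside the gene span, and the first PAX6 start, at position 31817961, was 18.4 kb away. Whether the inner start is used in these cells was not tested.

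A second region of all 3 replicates lay inside PAX6 close to its 5′ end (chr11:31815474-31815871, summit 2.35 kb from the end). Its fold enrichment was 9.91, 11.2 and 11.1 in replicates 1, 2 and 3, which averaged 10.7 ± 0.7 (SD, n = 3). The values were close together, with a coefficient of variation of 6.63% and summits within 12 bp. The −log10 q was 15.7, 23.0 and 17.4. It exceeded 63.8% of shared regions by mean fold enrichment. The nearest annotated start was that of PAX6-AS1, 951 bp away, and the first PAX6 start was 2.35 kb away.

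Another region within PAX6 was called in replicates 2 and 3 only (chr11:31811051-31811315), with fold enrichment of 7.90 and 7.08. Its summits differed by 15 bp, and the nearest PAX6 start was 1.26 kb away. The 29 kb PAX6 span thus held 3 regions, 2 of them in all replicates, spaced 11.7 and 4.40 kb apart. None of the 9 PAX6 start windows overlapped a region, and the closest median summit to any PAX6 start was at 1120 bp. Over all start windows, 3.12% overlapped a region of any replicate, so 0 of 9 is not set apart from other genes.

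**Figure D2:**
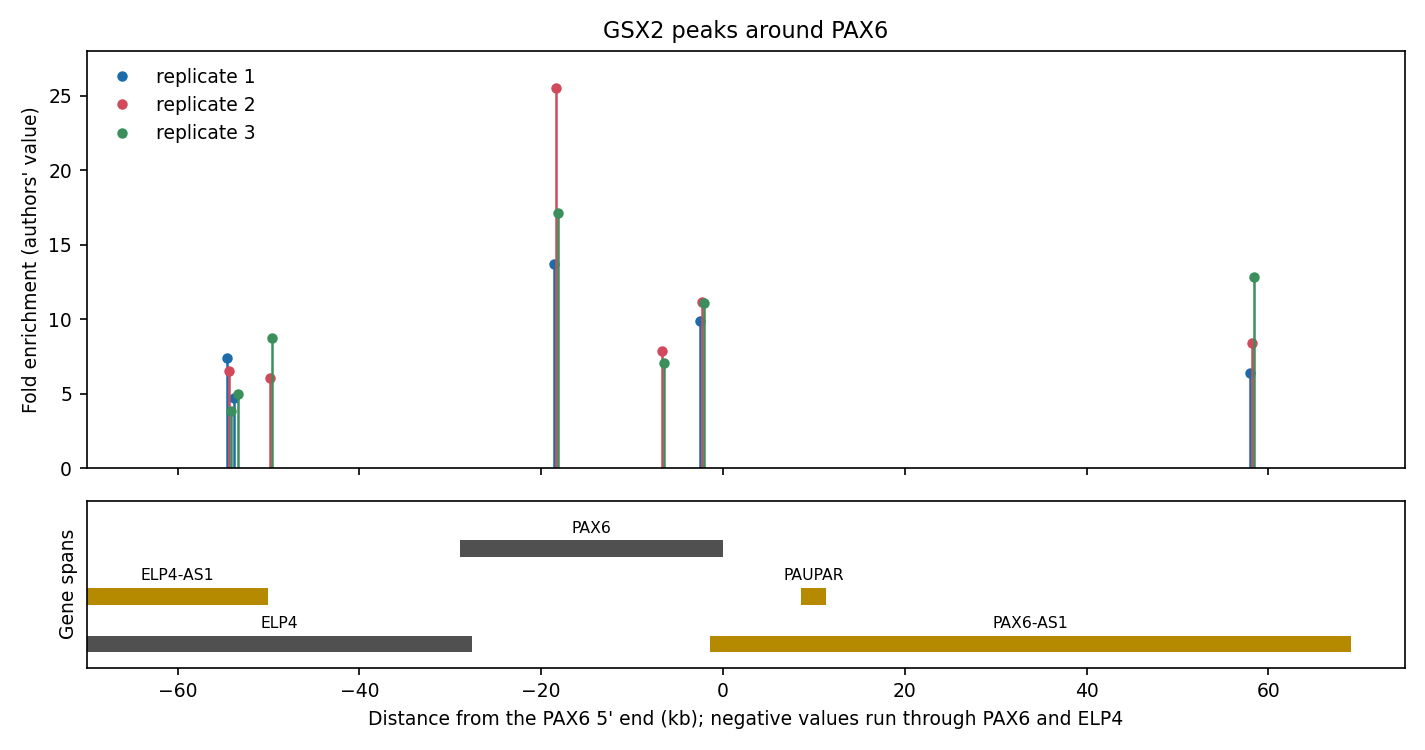
Fold enrichment by replicate (vertical axis, linear, the authors' value) against distance from the PAX6 5′ end in kb, with gene spans below, protein-coding genes in dark grey and noncoding RNAs in ochre, and replicates drawn slightly apart. The strongest region is at −18.4 kb inside PAX6, a group of 3 weaker regions lies near −50 kb in ELP4, and no peak falls on PAUPAR.

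On the 5′ side, a region found in every replicate lay 58.2 kb upstream of PAX6, inside the span of PAX6-AS1 (chr11:31875883-31876417). Its fold enrichment was 6.37, 8.42 and 12.8 in replicates 1, 2 and 3, which averaged 9.20 ± 3.29 (SD, n = 3). Replicate 3 was high and replicate 1 low, and the coefficient of variation, 35.8%, was the highest of the 4 shared regions. The −log10 q was 11.9, 10.9 and 21.2. In replicate 3 this region stood above the one at the 5′ end of PAX6, and in replicates 1 and 2 below it, so the order of those 2 regions was not resolved. PAUPAR, which lies between the region and PAX6, held 0 regions in any replicate.

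On the 3′ side, 3 regions lay within 4.55 kb of each other in ELP4, 20.9 to 25.4 kb beyond the end of PAX6. The farthest of these was in all 3 replicates (chr11:31763291-31763732), with fold enrichment of 7.39, 6.55 and 3.82 in replicates 1, 2 and 3, which averaged 5.92 ± 1.87 (SD, n = 3). It was a weak region, with a mean above only 3.82% of shared regions. The replicate 3 peak ranked 9115 of 9122 in its list, and its −log10 q of 3.50 was near the lowest in the deposited lists, 3.0. The adjacent region (chr11:31764220-31764564) was called in replicates 1 and 3 at 4.75 and 4.97. The region at the start of ELP4-AS1 (chr11:31768013-31768270) was called in replicates 2 and 3 at 6.06 and 8.78, with summits 33 bp apart.

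**Figure D3:**
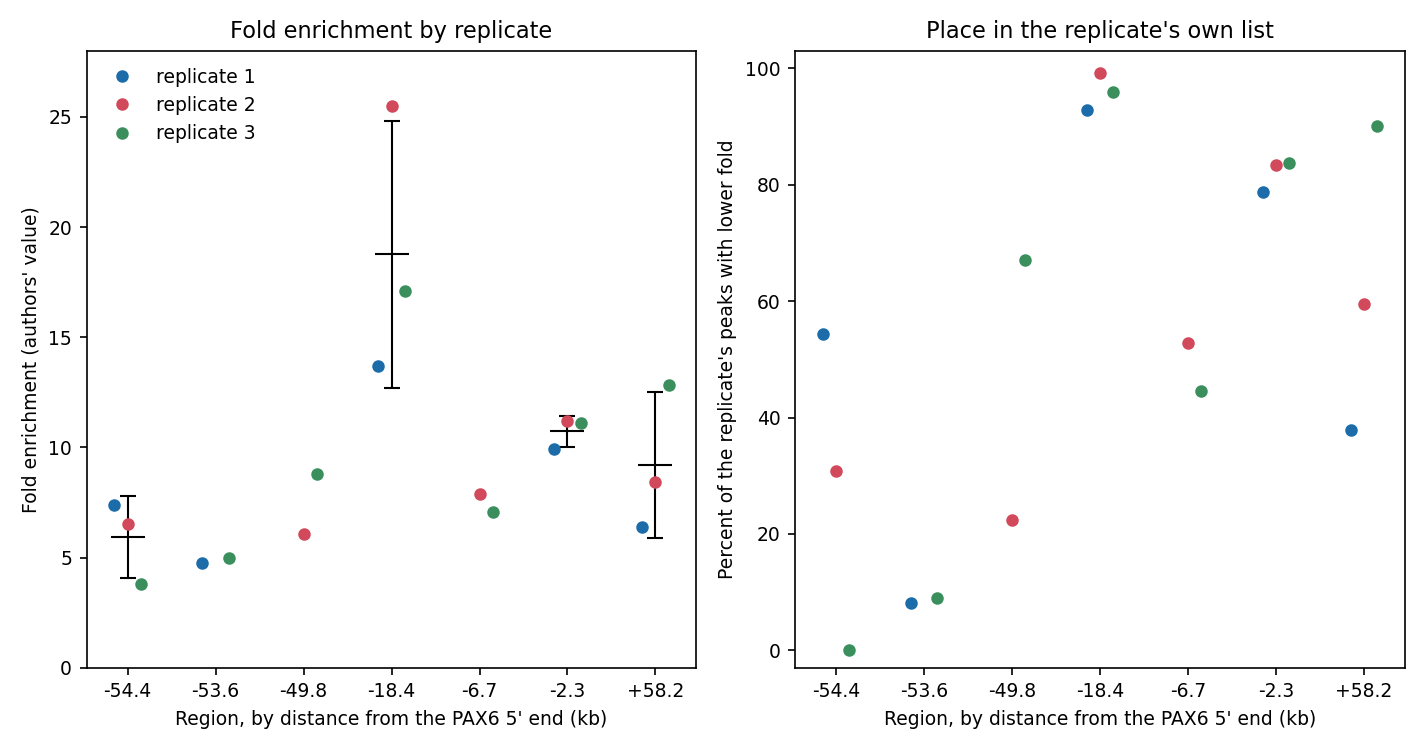
The 7 regions called in at least 2 replicates, ordered along the chromosome by distance from the PAX6 5′ end in kb: left, fold enrichment by replicate (points, the authors' value) with mean ± SD (black) for the 4 regions of all 3 replicates; right, the percent of the same replicate's peaks with a lower fold enrichment. The region at −18.4 kb is above 92.9, 99.2 and 96.0% of the peaks of replicates 1, 2 and 3, and the region at −54.4 kb is at the bottom of the list of replicate 3.

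The remainder of ELP4 held single-replicate regions. They lay 88.2, 139.8, 153.6 and 250.7 kb from the end of PAX6. The first, in replicate 1, reached a fold enrichment of 4.20. The next 2, both in replicate 3, reached 7.72 and 6.74. The farthest, in replicate 1, reached 6.44. The whole ELP4 span of 280.6 kb thus held 7 regions, of which 1 was in every replicate, 2 were in 2 replicates and 4 in 1, and its own start window overlapped none. On the 5′ side the only other region, 213.2 kb from PAX6, was in replicate 3 at 8.48, with 154.9 kb between it and the region in PAX6-AS1. RCN1, which encodes a calcium-binding protein of the endoplasmic reticulum, held 0 regions, as did IMMP1L, a mitochondrial peptidase gene, in the part of it that lies inside the window. The noncoding and pseudogene spans LOC107984420, LOC124902657, LOC124902658, LINC03031, LOC105376613, LOC101928385, LOC124902847 and EIF4A2P5 held 0 regions. THEM7P, which crosses the edge of the window, held 1, outside it.

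Outside the window on the 3′ side, the nearest region was in IMMP1L, 355.0 kb from PAX6, at 5.38 and 8.33 in replicates 1 and 2. The nearest one inside the window on that side was the ELP4 region at 250.7 kb. On the 5′ side, the nearest outside was in THEM7P at 344.5 kb, at 5.50 in replicate 3. DCDC1, with a span of 506.1 kb, held 5 regions, of which 0 were in every replicate, 3 were in 2 and 2 in 1. Its strongest was at 8.23 and 8.49 in replicates 1 and 3. DNAJC24, a co-chaperone gene between DCDC1 and ELP4, held a region of all 3 replicates at 10.4, 8.35 and 10.8 in turn, which averaged 9.86 ± 1.32 (SD, n = 3), 370.6 kb from PAX6. Toward WT1, a zinc finger transcription factor gene of kidney and gonad, regions of every replicate lay 382.2 kb from PAX6 (6.05 ± 0.38) and 479.8 kb from it (9.13 ± 0.90, SD, n = 3 each). WT1 itself held 0 regions.

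Compared with windows of the same kind around other protein-coding genes, that of PAX6 held many shared regions but was not at the extreme. Its 4 shared regions exceeded the count of 97.6% of 19973 other genes, 1.45% had the same count and 0.926% (185 genes) had more. In all, 2.38% of protein-coding genes had at least 4. The median gene had 0 shared regions and 3 regions of any kind, against 12 for PAX6. Neighbouring genes share windows, so these genes are not independent and the place of PAX6 is a description. The windows of ELP4 and RCN1 each held 5 shared regions, that of IMMP1L 3 and those of DCDC1 and DNAJC24 1 each. Within gene spans, at least 1 shared region was found in 7.15% of protein-coding genes of any length. Among 5605 protein-coding genes of 0.5 to 1.5 times the length of PAX6, 177 (3.16%) held at least 1 shared region. Of the same 5605 genes, 11 (0.196%), PAX6 included, held at least 2 shared regions, and 20 (0.357%) held at least 3 regions of any kind.

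Among the other PAX genes, transcription factor genes with the same paired box, 6 of 8 had a shared region within 300 kb, against 49.3% of protein-coding genes. PAX2, a gene of kidney and the midbrain-hindbrain boundary, and PAX3, a gene of the dorsal neural tube and neural crest, had 4 shared regions each, as PAX6 did, while PAX4 and PAX8, named after their counts were seen, had 0. The strongest PAX2 region was 220.3 kb from the gene at 14.9, 25.7 and 16.5 in replicates 1, 2 and 3, which averaged 19.0 ± 5.8 (SD, n = 3). The strongest PAX3 region was 23.1 kb away, with a mean of 19.5 ± 1.0. With 18.8 ± 6.1 for PAX6, these 3 means differed by less than the spread between replicates. The highest of the family was a region 214.7 kb from PAX9, named after its value was seen, at 28.4, 24.7 and 29.5 in replicates 1, 2 and 3, which averaged 27.5 ± 2.5 (SD, n = 3). It was above the strongest PAX6 region in replicates 1 and 3 and below it in replicate 2. The same PAX9 region was also the strongest shared one within 300 kb of NKX2-1, a ventral telencephalon gene that lies between it and PAX9. By mean fold enrichment, the strongest shared region lay inside the gene for PAX6 and PAX7. It lay outside the gene for PAX1, PAX2, PAX3, PAX5 and PAX9. PAX3 held 2 shared regions inside its span, as PAX6 did, and PAX7 held 1.

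**Figure D4:**
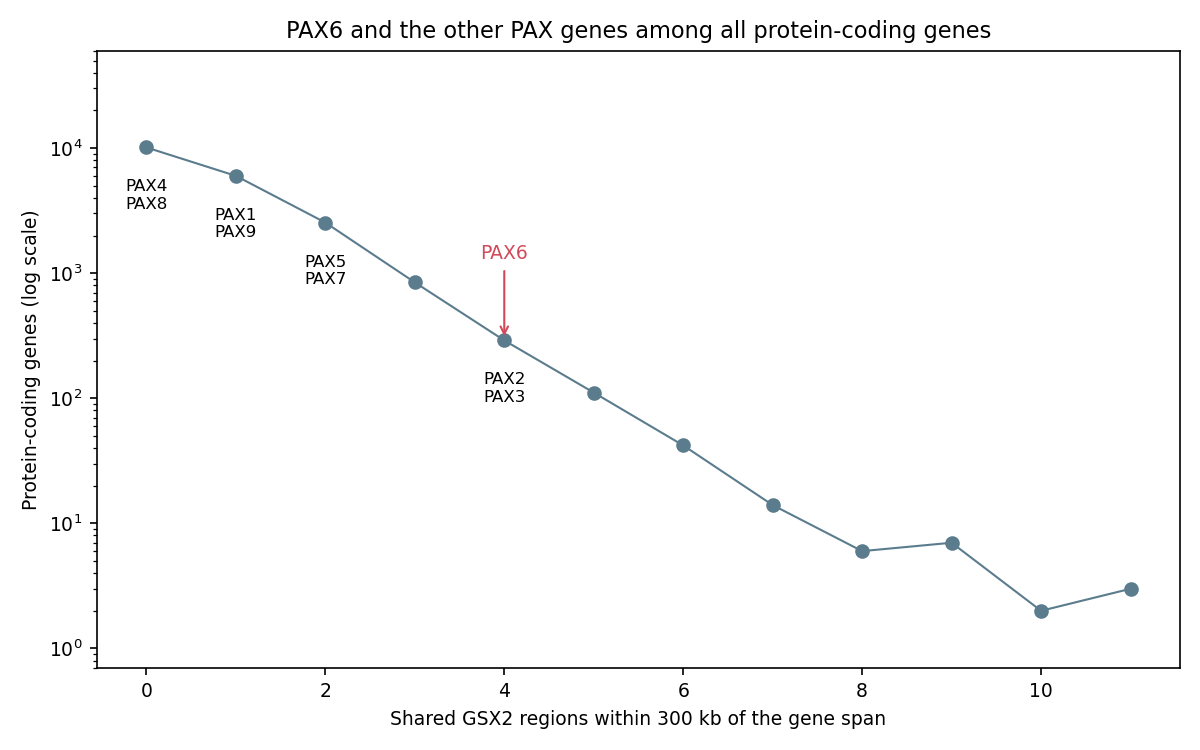
Number of protein-coding genes (log scale) for each count of shared regions within 300 kb of the gene span, with PAX6 and the 8 other PAX genes marked at their counts. PAX6, PAX2 and PAX3 stand at 4 shared regions, a count that 2.38% of protein-coding genes reach or exceed.

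Genes that act beside or against PAX6 were also counted, against the same 49.3% of all protein-coding genes. Of 19 genes of the dorsal telencephalon, 15 had a shared region within 300 kb, with a median of 2, and 5 had at least as many as PAX6. GLI3, a Hedgehog effector, had 11, and EMX2 and FEZF2, regulators of cortical patterning and projection neurons, had 6 each. Of 18 genes of the ventral telencephalon, 13 had one, with a median of 1, led by SIX3 (8), a homeobox gene of the forebrain and eye, and by GSX2 and VAX1 (4 each). Of the 4 at GSX2, 2 were inside the gene, whose coding sequence the induced transgene also carries, and the part of transgene DNA in them was not tested. Of 15 genes of the eye or partners of PAX6, 14 had one, with a median of 1, led by OTX2 (9), SIX3 (8) and SOX2 (7). The ventral and eye lists share SIX3, and several members share windows, so the shares are descriptions. The 4 shared regions of PAX6 were above the median of each list and below its highest count.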

How the data were processed

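Per the submitters' processing notes, the tools named were Trim Galore, Bowtie2, SAMtools, MACS3 and deepTools, with build hg38; the sources used here do not give settings or say whether input was the control. The authors deposited 1 peak list per replicate, with fold enrichment as a linear ratio and significance as −log10 p and −log10 q. The smallest deposited −log10 q was 3.0, a q-value of 0.001. The deposited offset of each summit, in bp, gave its position.

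Lines sharing an interval were reduced to the summit of highest fold enrichment, on chromosomes 1 to 22 and X. Intervals were merged across replicates by at least 1 bp. A region with a peak of every replicate was called shared, and its position was the median summit. Genes and start sites came from RefSeq tables of GRCh38.p14, which give spans and starts but no exons, so exons, introns and UTRs were not separated. A gene's window reached 300 kb beyond each end of its span.

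Members, gene lists and motifs were chosen with earlier results of these data known. PAX6, ELP4, DCDC1 and every gene within 300 kb of PAX6 were named, and up to 3 members with the most shared regions in each of 4 lists. With 1 group, no test was made. The 95% Wilson interval of a share reflects counting error alone. The merging code was run on simulated peaks at widely spaced sites, which does not test regions that lie close together. Python 3.11.15, pandas 2.3.3 and scipy 1.17.1 were used.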

Additional observations from a re-analysis of the deposited data

How the results depend on the processing

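Requiring 50% overlap of the shorter peak left 12 regions and 4 shared ones, and linking summits within 100 bp gave 13 and 4. A minimum −log10 q of 10 left 7 regions, of which 3 were shared, as the ELP4 region at −54.4 kb was then called in replicate 1 alone. A window of 500 kb held 20 regions and 7 shared ones, and one of 100 kb held 8 and 4. Counting a peak of at least 2 replicates as shared gave 7. Leaving out each replicate in turn gave 9 to 12 regions, 4 to 6 shared regions, and a mean fold enrichment of the strongest region of 15.4 to 21.3. Shared then meant a peak in each of the 2 remaining lists, a looser rule than a peak of all 3. Scaling by list medians gave 18.6 for it. The percent of other genes with fewer shared regions than PAX6 was 98.1% at the stricter q, 99.5% with windows of 100 kb and of 500 kb, 98.7% per 100 kb of window, and 95.8 to 99.4% without 1 replicate. The last range used the looser rule. The mean over a replicate's summits changed nothing, since 0 intervals in the window had several summits. No paired analysis was possible because the data used here held 0 peak lists for the 3 matching inputs, and a lone group has no contrast. The unknown depth limits what a missing call can show.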

Other observations

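Of the 11 genes of similar length to PAX6, PAX6 included, that held at least 2 shared regions, LMO4, a LIM-only cofactor gene, had the most, with 5 in its span and 7 regions in all. LMO4 was named after its count was seen.

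The PAUPAR start window had 3 copies of TAATTA, a number reached by 16 of 34943 start windows (0.0458%), and no peak of any replicate lay within 10 kb of that start.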
